A study of Mus musculus with 35 samples.

Results

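The genes that write, erase and read DNA methylation were followed in CD45+ve microglia, the resident macrophages of the brain, as these cells matured after birth. The 8 genes were the rows named Dnmt1, Dnmt3a, Dnmt3b, Uhrf1, Tet1, Tet2, Tet3 and Mbd2 among the 55401 genes of the mRNA count table, and the choice did not use a threshold on their values. CD45+ve cells were immunopanned from whole brains of male and female C57Bl/6 mice at postnatal day 6 (P6), postnatal day 15 (P15) or 8 weeks of age. Each mouse compared here gave 1 mRNA library. The mice were wild type, and the groups shared their strain, tissue and capture antibody and differed in age and sex. Of the 35 mice with an mRNA library, 34 were compared. These were 4 females and 6 males at P6, 6 females and 6 males at P15, and 6 females and 6 males at 8 weeks. P6 female 6, which is absent from the mice the study plotted after it removed 1 outlier, was left out of the comparisons and is shown separately. CD45 is also carried by monocytes, lymphocytes and other leukocytes, so the capture does not by itself select microglia.

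Cytosine methylation at CpG dinucleotides is set by DNA methyltransferases. Dnmt3a and Dnmt3b place methyl groups on unmethylated DNA, whereas Dnmt1 copies the pattern onto the new strand after replication, where it is brought to hemimethylated CpG by Uhrf1. The Tet enzymes oxidise 5-methylcytosine to 5-hydroxymethylcytosine and beyond, which starts its removal. Mbd2 binds methylated CpG and recruits the NuRD complex, a chromatin remodeller with histone deacetylases.

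Libraries held from 23316107 to 38965078 counted fragments, and 3 counts, taken as the floor, corresponded to 0.0770 to 0.129 CPM (counts scaled to the size of the library). All 8 genes passed the filter on low counts, as did 17612 genes in all. The microglial markers Tmem119, P2ry12, Sall1, Cx3cr1 and Fcrls averaged 9.70, 11.18 and 11.27 log2 CPM from the youngest age to the oldest. RNA of neural progenitors and neurons was present as well, with an average of 6.35 log2 CPM over its markers in P6 mice (range 5.37 to 6.96), 5.14 in P15 mice and 3.32 in adults (range 2.60 to 4.33). Between P6 and 8 weeks, 10 of these 12 markers were lower and 1 was higher (edgeR quasi-likelihood test, FDR below 0.05). Other cells moved in other ways. Astrocyte markers averaged 6.90, 8.36 and 8.14 log2 CPM at the 3 ages (5 of 6 higher and 1 lower from P6 to 8 weeks), oligodendrocyte lineage markers 5.14, 5.91 and 4.68 (3 of 7 higher, 4 lower), and endothelial markers 3.76, 4.47 and 4.66 (2 of 5 higher). Monocyte and macrophage markers averaged 4.75, 4.90 and 4.72, but 4 of 9 fell from P6 to 8 weeks, among them Lyve1 (log2 fold change -2.57) and Pf4 (-1.56), and 2 rose, Ccr2 (3.05) and Ly6c2. Lymphocyte and neutrophil markers averaged 0.51, 1.36 and 2.49, and 7 of 7 were higher at 8 weeks than at P6 (median log2 fold change 2.12). The part of these cells in the age differences of the 8 genes was not tested, except for the neural markers. P6 female 6 had more neural marker RNA (7.51) and less microglial marker RNA (8.29) than any other P6 mouse. In bulk samples, fewer cells of a type and less RNA per cell cannot be told apart.

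Transcripts of the maintenance machinery fell with age, those of Uhrf1 far more than those of Dnmt1, while the estimates for the de novo writers and the erasers stayed under 2-fold in the fit without a covariate. With the mean of the neural markers as a covariate, 4, 4 and 6 of the 8 genes passed from P6 to P15, from P15 to 8 weeks and from P6 to 8 weeks. Dnmt1 and Uhrf1 were among them each time. Several values of the other genes moved, as given with each of those genes. The neural marker ranges of P6 and 8 weeks did not overlap, so between these ages the covariate fit cannot tell age and neural RNA apart. The P15 range (3.33 to 6.32) overlapped both, with a mean (5.14) between theirs. From P6 to 8 weeks, 5 of the 8 genes fell (Dnmt1, Dnmt3a, Dnmt3b, Uhrf1 and Tet3), against 36.6% of all genes tested, and 1 rose (Tet2), against 37.8% of all genes. From P6 to P15, 4 fell (Dnmt1, Dnmt3b, Uhrf1 and Mbd2), against 31.4% of all genes, and 0 rose, against 30.4%. From P15 to 8 weeks, 5 fell (Dnmt1, Dnmt3a, Uhrf1, Tet1 and Tet3), against 23.9%, and 1 rose (Tet2), against 24%. The median log2 fold change of the 8 genes from P6 to 8 weeks was -0.35, beside 0.04 over all genes tested. Calls were made with edgeR's quasi-likelihood test at a Benjamini-Hochberg adjusted p (FDR) below 0.05 over all 17612 genes. A stricter test for a change of more than 2-fold left Dnmt1 and Uhrf1 from P6 to P15 (4.85% of all genes were lower by that test), Uhrf1 from P15 to 8 weeks (3.07%), and Dnmt1 and Uhrf1 from P6 to 8 weeks (12.4%).

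**Figure D1:**
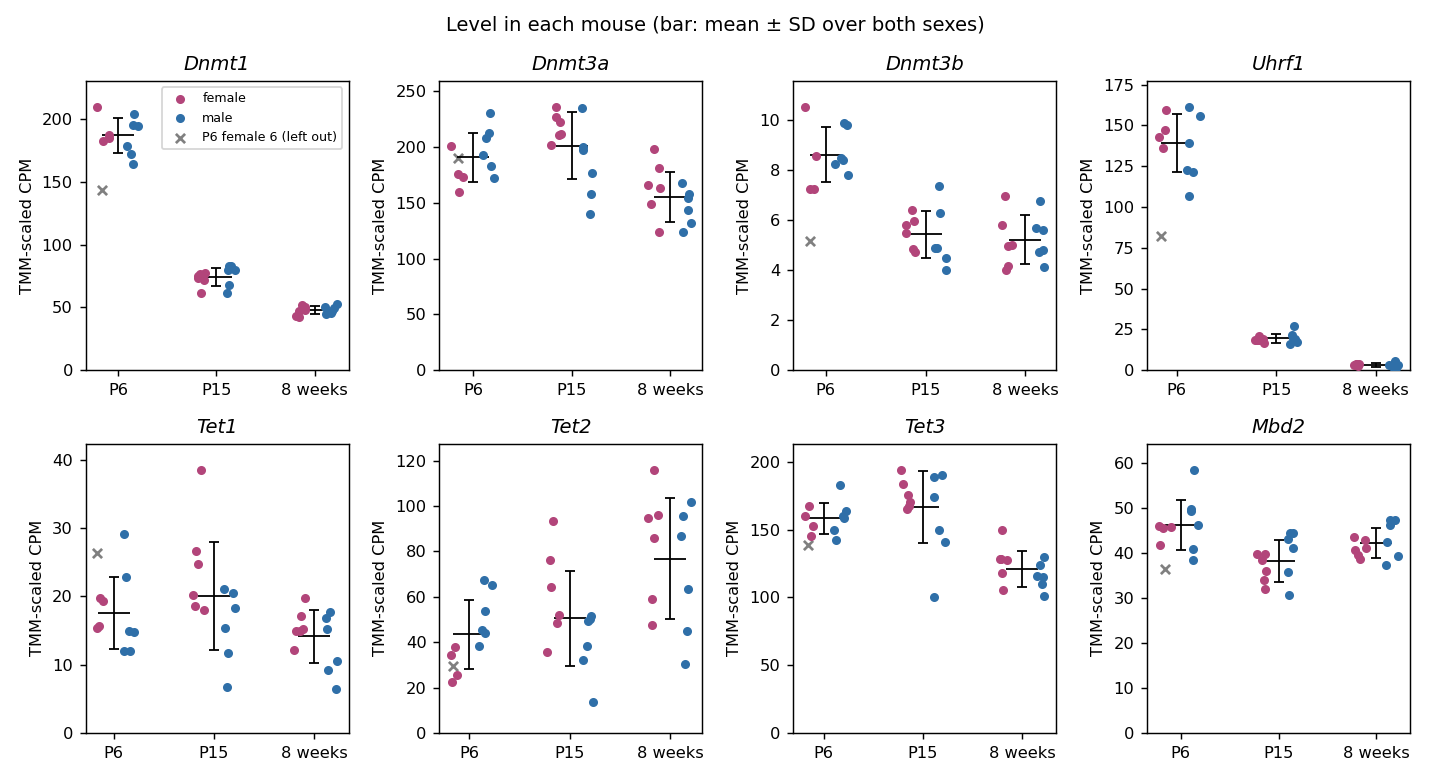
Level of each of the 8 genes in TMM-scaled CPM (vertical axes, starting at 0) in each mouse at P6, P15 and 8 weeks, with females and males in separate colours and bars for the mean ± SD over both sexes; the grey cross is P6 female 6, which is not in the bars. Dnmt1 and Uhrf1 stepped down at each age without overlap, whereas Tet2 spread from 13.7 to 93.4 CPM among the mice at P15.

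Dnmt1 (chromosome 9, 20907209 to 20959888, minus strand, GRCm38) encodes the maintenance methyltransferase. Its level ran from 164 to 209 CPM over the 10 mice at P6 with a median of 186. At P15 the lowest of 12 mice had 61.2 CPM, the median was 75.9 and the highest had 82.8. At 8 weeks the levels lay between 42.8 and 53.0 CPM with a median of 47.5. The mice of each age lay entirely below those of the age before. Means were 187 ± 13.9 CPM (SD, n = 10), 74.2 ± 7.37 (SD, n = 12) and 47.8 ± 3.36 (SD, n = 12). Dnmt1 fell by 1.34 ± 0.059 (SE) on the log2 scale from P6 to P15 (edgeR, FDR = 1.6e-18) and by a further 0.63 ± 0.056 from P15 to 8 weeks (edgeR, FDR = 1.1e-10). Over the whole period it was 3.93-fold lower.

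Uhrf1 (chromosome 17, 56303321 to 56323486, plus strand, GRCm38) encodes the ubiquitin ligase that reads hemimethylated CpG for Dnmt1. It held 107 to 161 CPM at P6 with a median of 141. At P15 it had 16.3 to 27.2 CPM with a median of 18.7. At 8 weeks it had 1.54 to 5.93 CPM with a median of 3.43, still above the floor in every mouse. No mouse of one age overlapped a mouse of another. Means were 139 ± 17.9 CPM (SD, n = 10), 19.5 ± 2.92 (SD, n = 12) and 3.40 ± 1.20 (SD, n = 12). Uhrf1 was 7.22-fold lower at P15 than at P6, with a log2 fold change of -2.85 ± 0.142 (SE; edgeR, FDR = 3.1e-17). It was a further 5.71-fold lower at 8 weeks than at P15, with a log2 fold change of -2.51 ± 0.142 (SE; edgeR, FDR = 2.4e-15). From P6 to 8 weeks the decrease was 41.2-fold. The highest mice for Uhrf1 were P15 male 1 at P15 and 8 weeks male 4 at 8 weeks, the same libraries that were lowest for Tet1 and Tet2 at those ages.

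Every mouse was lower at P15 than at P6 for 2 of the 8 genes, Dnmt1 and Uhrf1, as for 7.72% of all genes. The same 2 genes were separated between P15 and 8 weeks, as were 1.72% of all genes. Between P6 and 8 weeks Dnmt3b joined them, and 14.8% of all genes were separated in that way.

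The 10 markers of dividing cells, among them Mki67, Top2a and the replication licensing genes Mcm2, Mcm3, Mcm5 and Mcm6, were all lower at each step. Their mean log2 CPM was 6.98 ± 0.125 at P6 (SD, n = 10), 4.51 ± 0.192 at P15 and 2.40 ± 0.178 at 8 weeks (SD, n = 12 each), with no overlap between ages. Their median log2 fold change from P6 to 8 weeks was -5.06, beside -5.37 for Uhrf1 and -1.97 for Dnmt1. The share of dividing cells and the level of either gene per cell cannot be told apart in these libraries. Over the 34 mice, the genes whose log2 CPM was most like that of Uhrf1 were Racgap1, E2f1 and Cdc20 (Pearson r = 0.99 for each), and those most like Dnmt1 were Mcm6, Incenp and Tacc3 (r = 0.99 for each). These correlations span the 3 ages and are given as a description. Within an age, no relation of Dnmt1 or Uhrf1 with the marker mean of dividing cells passed correction over the 48 relations tested with neural or dividing cell markers.

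The promoter windows of these 2 genes are shown because Uhrf1 and Dnmt1 fell together with genes of DNA replication, many of which are known targets of E2F transcription factors. RefSeq windows on GRCm38.p6, from 250 bases before to 50 bases after each annotated start, were searched on both strands for TTTNNCGC, an E2F-type sequence in which each N had to be G or C. The sequence occurred in 2.26% of the 32817 windows of all genes. Of 12 windows searched for 7 of the 8 genes, 2 held it, 1 of Uhrf1 and 1 of Dnmt1. The windows of Dnmt3a, Dnmt3b, Tet1, Tet2 and Tet3 held none, as did the other window of Uhrf1 and the other windows of Dnmt1. Of 9 dividing cell markers with a window, 4 held it. In the 250 bases before the second Uhrf1 start (chr17:56304063-56304312, plus strand), the match lies 185 bases before the start and is in capitals.
Uhrf1 upstream: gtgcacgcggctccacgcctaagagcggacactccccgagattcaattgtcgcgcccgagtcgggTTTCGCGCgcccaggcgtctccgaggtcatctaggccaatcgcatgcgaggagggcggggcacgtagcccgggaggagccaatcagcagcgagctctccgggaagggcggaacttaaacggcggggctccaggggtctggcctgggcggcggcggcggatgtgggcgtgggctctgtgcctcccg
The Dnmt1 window with matches (minus strand) holds the sequence on the opposite strand, 219 bases before the start (chr9:20952825-20952852), and on the gene's own strand, 33 bases after it (chr9:20952574-20952600). Each is printed along the gene's strand with the match in capitals.
Dnmt1 before the start: gtttccgcgcGCGCGAAAaagccggggt
Dnmt1 after the start: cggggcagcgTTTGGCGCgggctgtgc
The match is a description of letters in these windows, and binding was not measured. The Uhrf1 and Dnmt1 windows with a match each held 33 CpG dinucleotides, where the median over all windows was 7. The Tet2 window held 57 and the Dnmt3a windows 18 to 47.

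Dnmt3a (chromosome 12, 3806007 to 3914443, plus strand, GRCm38), the de novo methyltransferase that remains expressed in many differentiated cells, did not share the early decrease of Dnmt1. It ran from 160 to 230 CPM at P6 (median 188), from 140 to 235 CPM at P15 (median 206) and from 124 to 199 CPM at 8 weeks (median 156). The 3 ages overlapped. Dnmt3a did not pass the test between P6 and P15, with a log2 fold change of 0.09 ± 0.082 (SE; edgeR, FDR = 0.34). It then fell by 0.37 ± 0.077 (SE) on the log2 scale from P15 to 8 weeks (edgeR, FDR = 2.4e-04), and at 8 weeks it was 1.21-fold below P6 (edgeR, FDR = 0.0027). With the neural marker covariate the log2 fold change was -0.62 from P15 to 8 weeks (edgeR, FDR = 1.1e-05) and -0.70 from P6 to 8 weeks (edgeR, FDR = 0.00016), and that from P6 to P15 was -0.08 (edgeR, FDR = 0.43).

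Dnmt3b (chromosome 2, 153649450 to 153687730, plus strand, GRCm38), the de novo enzyme best known from early embryos, was the least abundant writer per kilobase at P6 and P15. Its level was 7.23 to 10.5 CPM at P6 (median 8.42), 3.98 to 7.33 CPM at P15 (median 5.18) and 4.01 to 6.96 CPM at 8 weeks (median 4.97). P15 overlapped P6 in the highest mouse alone, and P15 and 8 weeks covered the same range. Dnmt3b fell by 0.66 ± 0.115 (SE) on the log2 scale from P6 to P15 (edgeR, FDR = 1.0e-05). From P15 to 8 weeks its log2 fold change was -0.06 ± 0.110 (SE; edgeR, FDR = 0.69). With the neural marker covariate the log2 fold change was -0.88 from P6 to P15 (edgeR, FDR = 8.3e-07), -0.35 from P15 to 8 weeks (edgeR, FDR = 0.056) and -1.23 from P6 to 8 weeks (edgeR, FDR = 1.4e-05), the last an estimate of more than 2-fold, beside -0.72 without it. The genes most like it over the 34 mice were Thrap3, Nolc1 and Ipo9 (Pearson r = 0.89, 0.88 and 0.88).

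**Figure D2:**
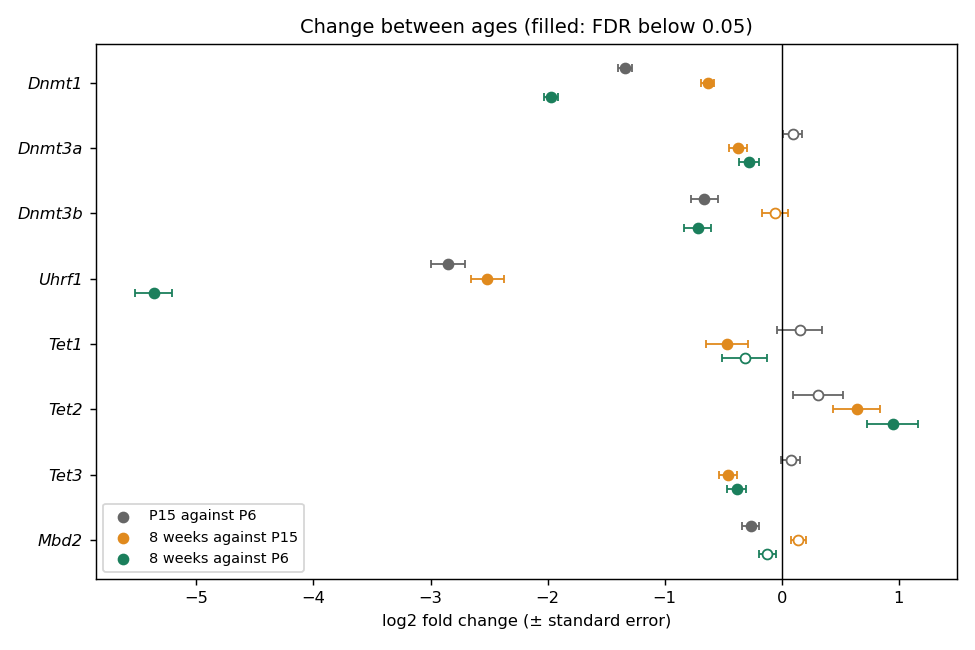
Log2 fold change (horizontal axis) of each gene for P15 against P6, 8 weeks against P15 and 8 weeks against P6; whiskers are standard errors of the edgeR fit over 34 mice and filled points have an FDR below 0.05. Uhrf1 reached -5.37 and Dnmt1 -1.97 from P6 to 8 weeks, and Tet2 is the gene with filled points above 0.

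Expressed per kilobase of exon (RPKM, the union of the exons of each gene), the order of the 8 genes changed with age. At P6 the mean level was highest for Uhrf1 (32.7 RPKM), followed by Dnmt1 (25.4), Mbd2 (14.4), Dnmt3a (11.5), Tet3 (9.48), Tet2 (2.58), Dnmt3b (1.68) and Tet1 (1.14). Uhrf1 was above Dnmt1 in 10 of 10 mice, although the ranges of the 2 genes overlapped. At P15 Dnmt3a (12.1 RPKM) and Mbd2 (11.9) led, and they were not separated, since Dnmt3a was the higher in 7 of 12 mice. Dnmt1 (10.1 RPKM) and Tet3 (9.98) were likewise not separated at P15. At 8 weeks Mbd2 (13.1 RPKM) was above Dnmt3a (9.32) in 12 of 12 mice, and Dnmt3a was above Tet3 (7.25) in 12 of 12. Dnmt1 had 6.48 RPKM and Tet2 4.56 at that age. The last places at 8 weeks were held by Dnmt3b (1.02 RPKM), Tet1 (0.918) and Uhrf1 (0.799), whose ranges overlapped. By its mean Uhrf1 passed from the first place to the last, but these genes were not separated. Tet1 was above Uhrf1 in 8 of 12 mice. A gene whose transcripts use fewer of the annotated exons has its level understated by this measure.

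The balance of maintenance and de novo writers was also measured within each library, where scaling between libraries plays no part. The ratio of Dnmt3a to Dnmt1 per kilobase ran from 0.388 to 0.546 at P6 with a geometric mean of 0.450. It ran from 0.844 to 1.64 at P15 and from 1.08 to 1.71 at 8 weeks, with geometric means of 1.19 and 1.43. Per kilobase, Dnmt1 exceeded Dnmt3a in every mouse at P6, and Dnmt3a exceeded Dnmt1 in every mouse at 8 weeks. The order at P6 rests on the exon lengths, 7377 bases for Dnmt1 and 16642 for Dnmt3a. Without division by length, the P6 means were 187 CPM for Dnmt1 and 191 for Dnmt3a. The change of the ratio with age does not depend on these lengths. The log2 ratio was 1.41 higher at P15 than at P6 (permutation test, adjusted p = 2.4e-05, the smallest p before adjustment being the smallest the permutations can give) and 0.26 higher at 8 weeks than at P15 (permutation test, adjusted p = 0.013). The ratio of Uhrf1 to Dnmt1 moved the other way, with geometric means of 1.28, 0.452 and 0.117 from the youngest age to the oldest and no overlap between the ages. Each of its 3 differences passed the permutation test (adjusted p = 2.4e-05), so Uhrf1 fell more than Dnmt1 at both steps. Tests were two-sided and adjusted over 12 tests of 4 ratios.

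**Figure D3:**
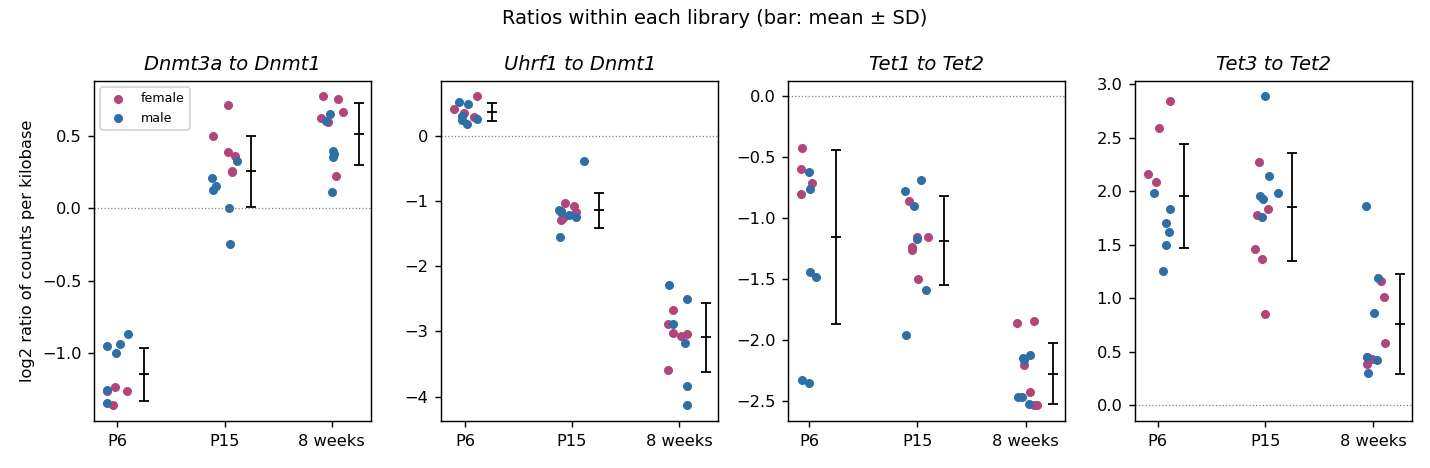
Log2 ratio of counts per kilobase of 4 pairs of genes (vertical axis) in each mouse at P6, P15 and 8 weeks; a dotted line marks equal levels where the axis reaches 0, and bars give the mean ± SD of each age. Dnmt3a to Dnmt1 rose from a geometric mean ratio of 0.450 to 1.43, and Uhrf1 to Dnmt1 fell from 1.28 to 0.117.

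Of the other genes that act with the writers, 4 of the 7 tested fell from P6 to 8 weeks and 1 rose, beside 36.6% and 37.8% of all genes (median log2 fold change -1.17, beside 0.04 over all genes). The chromatin remodeller Hells, needed for methylation of repeats, had a log2 fold change of -3.56 ± 0.233 (SE), and Cdca7l, a relative of the Hells partner Cdca7, had -3.77 ± 0.154. Cdca7 itself had -1.32 ± 0.114 and the replication clamp Pcna -1.17 ± 0.089. Zbtb24, a zinc finger protein known to activate Cdca7, rose by 0.84 ± 0.095 (SE). The Uhrf1 paralogue Uhrf2 had a log2 fold change of 0.03 ± 0.091 (edgeR, FDR = 0.78). Dnmt3l, the cofactor of de novo methylation in germ cells, had at most 2 counts in any of the 35 mice and was not tested. Genes of the methyl donor cycle, which makes and recycles S-adenosylmethionine, had 4 lower and 4 higher of 9, beside 36.6% and 37.8% of all genes. The lower ones were Shmt1 (-2.24 ± 0.121), Ahcy (-2.13 ± 0.122), Shmt2 (-1.30 ± 0.104) and Mthfd1 (-0.35 ± 0.075). Those that rose were Mat2a (1.02 ± 0.106), Mat2b (0.76 ± 0.064), Mtrr (0.44 ± 0.081) and Mtr (0.36 ± 0.133), each a log2 fold change ± SE.

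Tet2 was the eraser that rose, whereas Tet1 and Tet3 were lower at 8 weeks than at P15. Tet2 (chromosome 3, 133463679 to 133545139, minus strand, GRCm38), the Tet enzyme known for its part in blood and myeloid cells, had 22.5 to 67.2 CPM at P6 with a median of 41.2. At P15 it ran from 13.7 to 93.4 CPM with a median of 49.9. At 8 weeks it ran from 30.6 to 116 CPM with a median of 86.4. Ages overlapped widely, and the mean at 8 weeks was 76.9 ± 26.8 CPM (SD, n = 12), a coefficient of variation of 34.9% beside 14.5% for Dnmt3a. Tet2 was 1.93-fold higher at 8 weeks than at P6, with a log2 fold change of 0.95 ± 0.217 (SE; edgeR, FDR = 2.4e-04), and 1.56-fold higher than at P15 (edgeR, FDR = 0.0098), where the log2 fold change was 0.64 ± 0.201 (SE). Between P6 and P15 the log2 fold change was 0.31 ± 0.214 (SE; edgeR, FDR = 0.21). With the mean of the neural markers as a covariate both calls were lost, with log2 fold changes of 0.44 (edgeR, FDR = 0.42) and 0.34 (edgeR, FDR = 0.40).

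Tet3 (chromosome 6, 83362373 to 83459084, minus strand, GRCm38) was the most abundant eraser per kilobase at each age. Its level was 143 to 183 CPM at P6 (median 159), 99.9 to 194 CPM at P15 (median 172) and 101 to 150 CPM at 8 weeks (median 121). The 3 ages overlapped. Tet3 fell by 0.46 ± 0.076 (SE) on the log2 scale from P15 to 8 weeks (edgeR, FDR = 1.3e-05) and had a log2 fold change of 0.07 ± 0.081 from P6 to P15 (edgeR, FDR = 0.43). With the neural marker covariate the log2 fold change was -0.73 from P15 to 8 weeks (edgeR, FDR = 2.3e-07), -0.13 from P6 to P15 (edgeR, FDR = 0.19) and -0.86 from P6 to 8 weeks (edgeR, FDR = 3.6e-06), the last beside -0.39 without it. The gene whose log2 CPM was most like that of Tet3 over the 34 mice was Dnmt3a (Pearson r = 0.91), and Tet3 was in turn the gene most like Dnmt3a. Those next to Dnmt3a were Cacna1d and Adgrl2 (r = 0.85 for each), and those next to Tet3 were Adgrl2 (r = 0.90) and Setdb1 (r = 0.88).

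Tet1 (chromosome 10, 62804570 to 62908996, minus strand, GRCm38), the Tet enzyme known from embryonic stem cells and neurons, was the least abundant eraser per kilobase. It had 11.9 to 29.1 CPM at P6 (median 15.5), 6.72 to 38.5 CPM at P15 (median 19.4) and 6.42 to 19.8 CPM at 8 weeks (median 15.1). The ranges overlapped throughout. It fell by 0.47 ± 0.181 (SE) on the log2 scale from P15 to 8 weeks (edgeR, FDR = 0.033), whereas from P6 to 8 weeks the log2 fold change was -0.32 ± 0.191 (SE; edgeR, FDR = 0.13). With the neural marker covariate the log2 fold change from P15 to 8 weeks was -0.05 (edgeR, FDR = 0.90). This call was also lost with the label numbers as a replicate block, as given with the processing. P6 female 6, with the most neural marker RNA at P6, had 26.4 CPM of Tet1, above the P6 median and within the P6 range. This mouse also had the most astrocyte (8.27 log2 CPM) and oligodendrocyte lineage (7.32) marker RNA at P6.

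Within a library the Tet genes shifted towards Tet2 in tests without a covariate. The ratio of Tet1 to Tet2 per kilobase had geometric means of 0.450, 0.440 and 0.207 from the youngest age to the oldest, and that of Tet3 to Tet2 had 3.88, 3.61 and 1.69. Both ratios were lower at 8 weeks than at P15 (permutation test, adjusted p = 2.4e-05 for Tet1 and 0.0001 for Tet3), although the ranges of the ages overlapped. Neither differed beyond the spread between mice from P6 to P15 (permutation test, adjusted p = 0.89 and 0.68). With the neural marker covariate, the log2 fold changes from P15 to 8 weeks were -0.05 for Tet1, 0.34 for Tet2 and -0.73 for Tet3. From P6 to 8 weeks they were 0.40, 0.44 and -0.86. The part of neural RNA in the ratios themselves was not tested.

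The spread of Tet1 and Tet2 within an age went with a property of the whole library. For each mouse the mean log2 CPM was taken over the 1447 other protein-coding genes tested with at least 10 kb of exon, a measure chosen after the values were seen. It ran from 4.84 to 5.16 at P6, from 4.34 to 5.38 at P15 and from 4.26 to 4.98 at 8 weeks. P15 male 1 and 8 weeks male 4, the lowest of their ages, were also the lowest of their ages for Tet1, Tet2 and Dnmt3a. P15 female 2 was the highest of its age for the long transcripts, Tet1 and Tet2. Of 24 relations (8 genes, 3 ages), 5 passed a permutation test of Pearson's r with adjustment over the 24, each for Tet1 or Tet2, and 2 passed by Spearman's rho, both for Tet1. For Tet1 at P15, Pearson r was 0.93 (permutation p = 1e-05, the smallest they can give, adjusted p = 0.00024) and Spearman's rho 0.92 (permutation p = 3e-05, adjusted p = 0.00072), and r was 0.94 without the 2 farthest mice. For Tet1 at 8 weeks, r was 0.90 (permutation p = 0.00016, adjusted p = 0.0019) and rho 0.90 (permutation p = 0.00012, adjusted p = 0.0014), and r without the 2 farthest mice was 0.77.

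For Tet2 the relation was less steady. At 8 weeks r was 0.84 (permutation p = 0.00089, adjusted p = 0.0071) and rho 0.65 (permutation p = 0.025, adjusted p = 0.13), with r = 0.72 without the 2 farthest mice. At P15 r was 0.73 (permutation p = 0.0071, adjusted p = 0.034) and rho 0.59 (permutation p = 0.046, adjusted p = 0.18), and r dropped to 0.37 without the 2 farthest mice, on which it rested. At P6 Tet1 had r = 0.84 (permutation p = 0.0024, adjusted p = 0.015), rho = 0.61 (permutation p = 0.068, adjusted p = 0.23) and r = 0.56 without the 2 farthest mice, while Tet2 had r = 0.20 (permutation p = 0.58, adjusted p = 0.71). The exon unions of Tet1, Tet2, Tet3 and Dnmt3a measure 15457, 16870, 16695 and 16642 bases in that order. By the same measure of likeness, Map3k2, Cntrl and Rictor were closest to Tet2 (Pearson r = 0.97 for each over 34 mice) and Casc4, Tia1 and Tfrc to Tet1 (r = 0.88, 0.87 and 0.86). The part of this library property in the age differences of Tet1 and Tet2 was not tested.

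**Figure D4:**
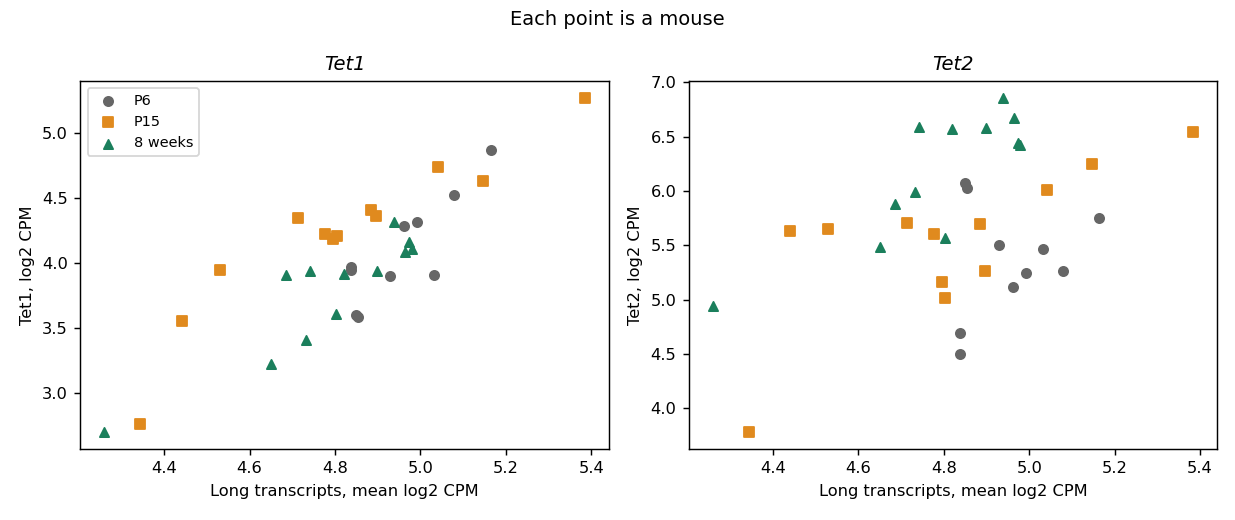
Log2 CPM of Tet1 and of Tet2 (vertical axes) against the mean log2 CPM of 1447 protein-coding genes with at least 10 kb of exon (horizontal axes), with 1 point per mouse and a symbol for each age. Within P15 and within 8 weeks, mice with more long transcript RNA had more Tet1 (r = 0.93 and 0.90), and the lowest point of Tet2 is P15 male 1.

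Among the genes that act with the erasers, 5 of 11 fell from P6 to 8 weeks and 3 rose (median log2 fold change -0.26), where 36.6% of all genes tested fell and 37.8% rose. The thymine DNA glycosylase Tdg, which excises bases that Tet enzymes oxidise beyond 5-hydroxymethylcytosine, had a log2 fold change of -1.94 ± 0.073 (SE), close to that of Dnmt1. Idh1, which makes the cosubstrate of the Tet enzymes in the cytosol, had -1.15 ± 0.057, and the abasic site nuclease Apex1 had -1.07 ± 0.093. Cxxc4, an inhibitor of Tet2 that binds CpG, had -1.21 ± 0.267. Its relative Cxxc5 rose by 0.59 ± 0.076, and Ogt, the sugar transferase that binds Tet proteins, rose by 0.83 ± 0.168. Gadd45g, of a family linked to demethylation and DNA repair, rose by 1.44 ± 0.175.

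Mbd2 (chromosome 18, 70568189 to 70626131, plus strand, GRCm38) was the reader of the group and was the steadiest of the 8 genes between the first age and the last in the fit without a covariate. Its level was 38.4 to 58.5 CPM at P6 (median 45.9), 30.8 to 44.4 CPM at P15 (median 39.1) and 37.4 to 47.4 CPM at 8 weeks (median 41.8). The 3 ages overlapped. Mbd2 fell by 0.27 ± 0.070 (SE) on the log2 scale from P6 to P15 (edgeR, FDR = 0.0016). The log2 fold change was 0.14 ± 0.067 from P15 to 8 weeks (edgeR, FDR = 0.077) and -0.12 ± 0.071 from P6 to 8 weeks (edgeR, FDR = 0.11). The last value passed the threshold without P6 female 3, at -0.18 (edgeR, FDR = 0.026). In that fit the median log2 fold change of all genes also moved, from 0.04 to -0.002. With the neural markers in the fit, the value of Mbd2 was -0.61 (edgeR, FDR = 2.6e-05). The same covariate gave -0.47 from P6 to P15 (edgeR, FDR = 3.9e-07) and -0.14 from P15 to 8 weeks (edgeR, FDR = 0.14).

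Mbd2 was lower in the libraries with more neural marker RNA. At P6, r with the mean of the neural markers was -0.84 (permutation p = 0.00077, adjusted p = 0.018) and rho -0.83 (permutation p = 0.0049, adjusted p = 0.078), with r = -0.76 without the 2 farthest mice. At P15, r was -0.84 (permutation p = 0.00056, adjusted p = 0.018) and rho -0.87 (permutation p = 0.00047, adjusted p = 0.023), with r = -0.78 without the 2 farthest mice. At 8 weeks, r was -0.48 (permutation p = 0.11, adjusted p = 0.32) and rho -0.62 (permutation p = 0.034, adjusted p = 0.19), with r = -0.15 without the 2 farthest mice. By Pearson's r these 2 of 48 relations passed, and with libraries scaled by their size alone 0 of 48 passed. By Spearman's rho 2 of 48 passed, Mbd2 at P15 and Dnmt1 at P15. For Dnmt1 with the neural markers at P15, rho was -0.84 (permutation p = 0.0011, adjusted p = 0.026) and r was -0.73 (permutation p = 0.0076, adjusted p = 0.091), with r = -0.71 without the 2 farthest mice.

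The genes most like Mbd2 over the 34 mice were Rufy1, Golt1b and Pctp (Pearson r = 0.91, 0.89 and 0.88).

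Of 8 other genes of the methyl-CpG-binding domain (MBD) family and the zinc finger readers, 5 rose from P6 to 8 weeks and 1 fell (median log2 fold change 0.31), beside 37.8% and 36.6% of all genes. The list includes Mbd3, Mbd5 and Mbd6, family members not known to bind methylated CpG selectively. The zinc finger readers Zbtb4 and Zbtb38 rose most, by 1.52 ± 0.079 and 1.41 ± 0.145 (SE), followed by Mbd5 (0.63 ± 0.137) and Mbd1 (0.32 ± 0.059). Mbd3, which takes the place of Mbd2 in a separate NuRD complex, fell by 0.67 ± 0.089. Of the 13 other NuRD subunits, 10 fell and 0 rose (median -0.81), beside 36.6% and 37.8% of all genes. The deacetylase Hdac2 had a log2 fold change of -1.28 ± 0.114, the histone chaperones Rbbp7 and Rbbp4 had -1.08 ± 0.074 and -0.94 ± 0.076, and the remodeller Chd3 had -0.99 ± 0.086. Mbd2 had -0.12 over the same period.

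**Figure D5:**
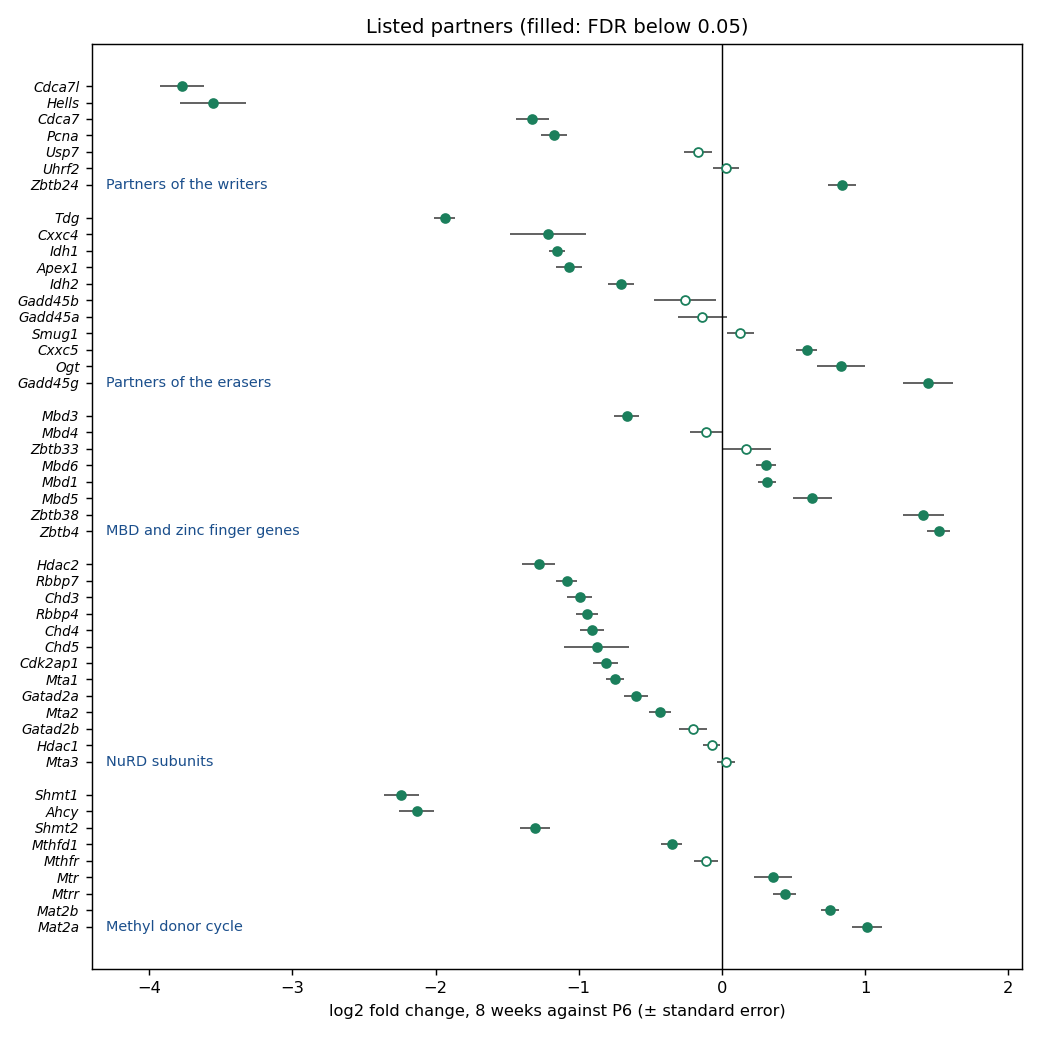
Log2 fold change from P6 to 8 weeks (horizontal axis, ± standard error of the edgeR fit over 34 mice) of genes that act with the writers, erasers and readers, grouped by list; filled points have an FDR below 0.05. Hells and Cdca7l lie furthest to the left, and 5 of 8 genes of the MBD and zinc finger group lie to the right of 0 with filled points.

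Sex was compared within each age. Of the 8 genes, 0 passed edgeR's quasi-likelihood test at any age, whereas 0.0511% of the genes tested passed among P6 mice, 0.0681% among P15 mice and 0.114% in adults, and DESeq2 and limma-voom also gave 0 of 8. At an unadjusted p below 0.05 there was 1 of the 8 genes at P6, whereas P15 had 3 and 8 weeks had 0, beside 7.1%, 18.2% and 2.94% of all genes tested. The gene at P6 was Tet2. The 4 females had 22.5, 25.7, 34.6 and 37.7 CPM of Tet2, and the 6 males had 38.3 to 67.2 with a median of 49.5. Every male was above every female, as for 3.07% of all genes, with a log2 fold change of 0.80 ± 0.325 for male against female (SE; edgeR, FDR = 0.70). At P15 the difference had the opposite sign, with 61.7 ± 20.8 CPM in females and 39.3 ± 14.7 in males (SD, n = 6 each) and a log2 fold change of -0.65 ± 0.285 (SE; edgeR, FDR = 0.26). At P15 the females also had more long transcript RNA, with a mean of 4.98 (range 4.71 to 5.38) beside 4.65 in males (range 4.34 to 4.90). At P6 these means were 4.91 in females and 4.98 in males. Neural markers averaged 6.69 in P6 females (range 6.55 to 6.82) and 6.12 in P6 males (range 5.37 to 6.96). Over the 10 P6 mice Tet2 had r = -0.72 with them (permutation p = 0.021, adjusted p = 0.12) and rho = -0.68 (permutation p = 0.035, adjusted p = 0.19), and r was -0.32 without the 2 farthest mice. The part of neural RNA in the difference between the sexes was not tested.

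The other genes at P15 with an unadjusted p below 0.05 were Tet1, with a log2 fold change of -0.65 ± 0.256 for male against female (SE; edgeR, FDR = 0.25), and Dnmt3a, with -0.24 ± 0.109 (SE; edgeR, FDR = 0.26). Dnmt1, Uhrf1, Dnmt3b, Tet3 and Mbd2 had log2 fold changes between the sexes of at most 0.16 in size, the value of Tet3 at P15 being -0.16 ± 0.107 (SE; edgeR, FDR = 0.39). Whether the sexes differed in their change with age was tested by an interaction term in edgeR alone. From P6 to P15 and from P6 to 8 weeks, 0% of all genes and 0 of the 8 genes passed, with 3593 and 898 of the 17612 genes at an unadjusted p below 0.05. The interaction of Tet2 from P6 to P15 was -1.45 ± 0.432 (SE; edgeR, unadjusted p = 0.0021, FDR = 0.15).

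P6 female 6 lay below the other P6 mice for 5 of the 8 genes. It had 143 CPM of Dnmt1, 82.2 of Uhrf1, 5.15 of Dnmt3b, 138 of Tet3 and 36.4 of Mbd2. Its levels of Dnmt3a (190 CPM), Tet1 (26.4) and Tet2 (29.5) were within the range of the other P6 mice. Its marker mean of dividing cells was 6.12, also below the P6 range of 6.79 to 7.14, and remained above every P15 mouse. With this mouse included, from P6 to 8 weeks the log2 fold change of Uhrf1 was -5.31 (edgeR, FDR = 4.2e-23), that of Dnmt1 was -1.94 (edgeR, FDR = 3.1e-23) and that of Tet2 was 0.96 (edgeR, FDR = 1.0e-04), and each of the 8 genes stayed on the same side of the threshold in the 3 comparisons of ages.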

How the data were processed

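The mRNA of CD45+ve microglia was measured in 35 mice, whose labels gave their age and sex. The authors deposited raw counts per gene, made from directional paired-end libraries on GRCm38/mm10 with STAR and featureCounts in its reverse-stranded mode. The release of their gene annotation is not given in the sources used here, and names and exon lengths came from GENCODE M21, where 260 of 55401 identifiers had no name. All 118 listed symbols were matched, and 2 genes of the lists as first written are not reported here. Exons of Tet2 and Dnmt3a overlap those of Gm42567 and Dnmt3aos on the opposite strand, which counting by strand keeps apart.

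The 8 genes and the lists were chosen with earlier results of these data known. Genes were kept that reached 0.5 CPM in 5 or more mice. Libraries were scaled by TMM, and log2 CPM used a prior count of 2. A quasi-likelihood fit in edgeR 4.0.16 (R 4.3.3) had a mean for every combination of age and sex, and age contrasts averaged the sexes. Standard errors are the log2 fold change divided by the root of its quasi-F statistic, and glmTreat tested for changes over 2-fold. Ratios (0.5 added to each count) and relations used 100000 permutations, two-sided, in scipy 1.17.1. The fits were tested on simulated data. Mice are separate animals, and the lowest chi-square per gene over 85 pairs within groups was 12.8, so no libraries were copies. Total counts had a median of 32742525. Floors cover counting error only, since the libraries carry no molecular identifiers.

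All 8 genes were described. Of the other lists, up to 4 genes with the largest change past the test from P6 to 8 weeks in each direction were eligible to be named. Uhrf2, Dnmt3l and some of the cell type and dividing cell markers were named outside this rule, after their values were seen. Likeness names the 3 protein-coding genes with the highest Pearson r among those with a mean log2 CPM of at least 3. Alternatives were all 35 mice, DESeq2's size factors, library size alone, DESeq2 1.42.0, limma-voom (limma 3.58.1), other filters on low counts, the compared ages alone, age without sex, a replicate block, a neural marker covariate, and the omission of single P6 females. The miRNA libraries were not analysed here.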

Additional observations from a re-analysis of the deposited data

Results flagged for a closer look

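Of the 48 sets of 4 to 6 mice tested (8 genes in 6 groups of age and sex), 3 held a mouse whose gap to the nearest other mouse was large against the range of its group by Dixon's 95% critical value, which chance exceeds in about 1 in 20 sets. Tet2 in P15 male 1 was at 3.78 log2 CPM, where the other 5 males lay between 5.01 and 5.69. The same library was the lowest at P15 for the long transcripts (4.34). Dnmt1 in P15 female 2 was at 5.94 log2 CPM, where the other 5 females lay between 6.16 and 6.28, and this library was the highest at P15 for the long transcripts (5.38). Mbd2 in P6 female 3 was at 5.39 log2 CPM, where the other 3 females lay between 5.51 and 5.53. Without P6 female 3, the log2 fold change of Mbd2 from P6 to 8 weeks was -0.18 (edgeR, FDR = 0.026), in place of -0.12 (edgeR, FDR = 0.11). The median over all genes moved from 0.04 to -0.002 in the same fit.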

How the results depend on the processing

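No value changed direction with a call under any alternative run. Among the age differences, 6 values past the threshold in neither fit changed sign, those of Dnmt3a and Tet3 from P6 to P15 with the neural marker covariate and with scaling by library size, and those of Mbd2 from P15 to 8 weeks and Tet1 from P6 to 8 weeks (0.40) with the covariate. Under the 2-fold threshold, the genes past the test numbered 2 from P6 to P15, 1 from P15 to 8 weeks and 2 from P6 to 8 weeks, in place of 4, 6 and 6. The relations of the 8 genes with marker levels that passed numbered 5 with all 35 mice and 0 with scaling by library size, in place of 2. Scaling by library size moved the median log2 fold change of all genes from 0.04 to -0.10 from P6 to 8 weeks and from -0.01 to -0.14 from P6 to P15, where 39.4% of the genes called were higher, beside 49.1% with TMM. Against that shift Mbd2 had -0.26 from P6 to 8 weeks and 0.13 from P15 to 8 weeks, both past the threshold. Mbd2 also passed with at least 10 counts in every mouse (-0.16 from P6 to 8 weeks) and in a fit of the compared ages alone (0.15 from P15 to 8 weeks). The labels number the mice within each group. Of 32 same-numbered pairs of different ages and the same sex, 13 had deviations correlated above 0.1 (median 0.08, range -0.30 to 0.57). Of 160 such pairs with different numbers, 44 did (median -0.01, range -0.50 to 0.61). The ranges overlap, so these values do not show whether the numbers pair the mice. With the numbers as a replicate block, Tet1 from P15 to 8 weeks was -0.41 (edgeR, FDR = 0.091), and the block moved no count of calls by over 1.5 times. A block across sexes was added after the data were seen and gave 0 of 8 genes for each comparison of the sexes. Over all alternatives, values of single genes kept their side of the threshold in 675 cases, gained a call in 6 (each for Mbd2) and lost one in 15, of which the 2-fold threshold, the block and the neural marker covariate account for all. Leaving out each P6 female in turn is the one check of single libraries, since the other groups hold 6 mice. Depth limited none of the 8 genes, since the lowest level, that of Uhrf1 in adults, was 1.54 CPM against a floor of at most 0.129.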
